A study of Mus musculus with 8 samples.

Results

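The expression of 10 genes for proteins that bind microtubules or their tubulin subunits was described in cultured mouse mast cells with and without a cut in Mettl3: Map1a, Map1s, Map4, Map7, Nav1, Nav2, Clip1, Mapre1, Mapre2 and Stmn1. They were taken from a list of 10 symbols matched to Ensembl gene identifiers, and all 10 were found among the 56748 identifiers and among the 14942 genes with enough reads to test. The list was selected on the measured differences in expression between these same groups, so the values of the 10 genes between the groups are given as a description, with no p-value. Map1a and Nav1 stood apart from the other 8 genes. Map1a was 3.74-fold higher in the Mettl3-RNP libraries than in the Pulsed libraries, and Nav1 was 1.84-fold higher. The fitted differences of the other 8 genes lay between 1.15-fold higher, for Map1s, and 1.15-fold lower, for Mapre2.

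The cells were bone marrow-derived mast cells (BMMCs), which are grown for at least 4 weeks in IL-3 from the bone marrow of C57BL/6 mice aged 6 to 8 weeks, and which were not stimulated. In the 4 Mettl3-RNP libraries the cells had been transfected with Cas9 ribonucleoproteins (RNPs, the nuclease Cas9 joined to guide RNAs) against Mettl3, and their genotype was given as Mettl3 KO. In the 4 Pulsed libraries the cells had been mock transfected and were Mettl3 WT. From this it was inferred, but not stated by the study, that this control received no Cas9 and no guide. The transfected cells were a bulk population and not clones, and the study states that untargeted cells remained among them. Both groups carried the replicate numbers 1 to 4, and libraries with the same number were treated as a pair. RNA was read as poly-A mRNA and expressed as CPM, the share of a library's counts scaled to 1000000.

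Microtubules are hollow polymers of alpha and beta tubulin that grow and shrink mainly at their plus ends, and in mast cells the secretory granules travel along them. Proteins such as Map4 and Map1a bind along the lattice and stabilise it, end-binding proteins such as Mapre1 recognise growing plus ends and recruit partners such as Clip1, and Stmn1 binds free tubulin dimers and favours disassembly. Mettl3 is the catalytic subunit of the complex that places N6-methyladenosine (m6A) on mRNA, mostly at adenosines within a short consensus of which the letters GGACT are a common form.

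The targeted gene was measured as a check of the labels. Mettl3 stood at 12.3, 9.18, 4.88 and 9.21 CPM in Mettl3-RNP replicates 1 to 4 and at 25.9, 24.5, 11.2 and 26.5 CPM in Pulsed replicates 1 to 4. It was lower in the Mettl3-RNP library of every pair, by 1.30 ± 0.109 on the log2 scale (SE, 4 pairs; adjusted p = 0.00543, edgeR's quasi-likelihood test). Pulsed replicate 3 lay below the highest Mettl3-RNP library, replicate 1, so the groups overlapped. A gene was called when its adjusted p was at most 0.05 and it differed by 1.5-fold or more. Over all genes tested this call rule took 2.06%, of which 1.24% were higher and 0.816% lower in Mettl3-RNP. Without the pairing by replicate number edgeR called 0 genes, with 579 at an unadjusted p under 0.05, and the adjusted p of Mettl3 was 0.744. The 8 libraries held between 32643260 and 45324826 counts. Mast cell markers were present in all of them, with Kit between 3074 and 5042 CPM, Fcer1a between 2393 and 3212 CPM and Cpa3 between 16657 and 37159 CPM. The 10 mast cell markers summed to 38460.5 to 54191.2 CPM in Mettl3-RNP and to 43409.7 to 61100.2 CPM in Pulsed. That sum was lower in the Mettl3-RNP library of every pair. Of the 10 markers, 6 were fitted higher and 4 lower. Only 1 passed the adjusted p of 0.05, lower in Mettl3-RNP and under the 1.5-fold limit. Neutrophil markers summed to at most 0.4 CPM, with S100a8, S100a9, Elane and Camp at 0 in all libraries. The 7 neuronal markers, listed because several of the 10 genes are best known from neurons, summed to between 1.3 and 3.4 CPM in Mettl3-RNP and between 0.7 and 3.0 CPM in Pulsed. Macrophage markers summed to 1.0 to 4.3 CPM in Mettl3-RNP and to 2.4 to 4.2 CPM in Pulsed, and erythroid markers to 2.3 to 3.6 CPM and 3.7 to 5.1 CPM. The stromal sums were 2.8 to 5.3 CPM and 3.0 to 3.6 CPM. Basophil markers summed to 860 to 1116 CPM and 838 to 965 CPM. Megakaryocyte markers summed to 2561 to 2675 CPM and 2177 to 2301 CPM, almost all of it Itga2b and Gp1ba, with Pf4, Gp1bb and Ppbp below 1 CPM in every library. Of these lists, Adgre1 of the macrophage list and Il18rap of the basophil list were called lower in Mettl3-RNP and no marker was called higher. Both were named after their values were seen, as were the megakaryocyte and neutrophil genes named above. The part of these cells in the values given here was not tested.

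The transcripts themselves differed in build. The letters GGACT were searched on the transcribed strand of each gene's canonical transcript in GENCODE mouse release M39 (build GRCm39), where 93.8% of the 12056 tested protein-coding transcripts held them at least once. The match nearest the stop codon, the part of the transcript where m6A is known to concentrate, is shown for 8 genes, because Stmn1 held no match and no sequence is printed for Mapre2. Each line gives 25 bases of the transcript 5′ to 3′ from the reference genome, with GGACT in capitals. A match is a stretch of letters and was not measured as a methylated site.
Map1a: catgttattgGGACTtggggctaag
Nav1: ttggcatcgaGGACTtccggacctg
Nav2: acgacatcctGGACTcgtccttgga
Map1s: caacctttggGGACTgggcactgtt
Map4: caacctggagGGACTggtaaaggtg
Map7: aaaaagaaatGGACTggcaaggcgt
Clip1: acgatacagaGGACTgtcccaccca
Mapre1: gcaacacagaGGACTactgcagctc

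The Map1a window lies in the 3′ UTR, 119 bases beyond the stop, at chr2:121138677-121138701 on the plus strand. The Nav1 window is coding sequence of exon 30, 375 bases from the stop, at chr1:135376736-135376760 on the minus strand. Nav2, whose annotated transcript ends at the stop, carries its window 27 bases from it in coding exon 40 (chr7:49256532-49256556, plus strand), Clip1 144 bases from the stop in coding exon 25 (chr5:123717470-123717494, minus strand) and Mapre1 304 bases from the stop in coding exon 5 (chr2:153603473-153603497, plus strand). Map1s has its only match 2403 bases from the stop, in coding exon 5 (chr8:71365605-71365629, plus strand). The windows of Map4 (chr9:109911354-109911378, plus strand, exon 20) and Map7 (chr10:20156047-20156071, plus strand, exon 18) lie in the 3′ UTR, 451 and 305 bases beyond the stop. The 5 letters are shared by all 8 windows and the flanks differ.

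Map1a and Nav1 were the 2 longest transcripts of the 10 genes and held the most matches. The Map1a transcript is 11539 bases long, with 17 matches, and 11 of these lie in exon 4, which spans 8104 bases, 7954 of them coding. The Nav1 transcript is 14035 bases long, with 19 matches, and its last exon spans 7200 bases, 96 of them coding. Among the tested protein-coding transcripts these match counts stood at percentiles 99.2 and 99.6, where the median was 4. Of the 104 genes with at least as many matches as Map1a, 2 were called higher (1.92%), Map1a and Nav1 themselves, and 2 lower, where 1.39% of all 12056 were called higher. The median log2 difference of the 104 genes was 0.129, beside 0.0019 over the 12056. Of the 246 genes whose longest exon was at least that of Nav1, 3 were called higher (1.22%, beside the same 1.39%), Map1a and Nav1 among them, and 3 lower. The median log2 difference of the 246 genes was 0.03. Beside both counts called lower, the share over all 14942 tested genes was 0.816%. Per kb of transcript the order was less extreme: Map1a held 1.47 and Nav1 1.35 matches, percentiles 74.7 and 69.2, and Map7 held more than either, 1.62 per kb. Nav2 held 9 matches, Clip1 and Map7 7 each, Map4 and Mapre2 5 each, Mapre1 3 and Map1s 1. Mapre1, with a last exon of 6456 bases, differed by 0.01 ± 0.0680 on the log2 scale. The part of exon length or of the matches in the differences between the groups was not tested.

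The lattice-binding Map1 family is represented by Map1a and Map1s, which are each made as a precursor and cut into a heavy and a light chain. Map1a (chr2, 121120071 to 121141313, plus strand) is best known as a stabiliser of microtubules in dendrites and axons. It stood at 13.2, 18.9, 10.4 and 6.16 CPM in Mettl3-RNP replicates 1 to 4 and at 4.30, 4.49, 3.51 and 1.10 CPM in Pulsed replicates 1 to 4. All Mettl3-RNP libraries lay above all Pulsed libraries, and replicate 4 was the lowest of both groups. The group means were 12.2 ± 5.35 and 3.35 ± 1.56 CPM (SD, n = 4). The pairs differed by 1.61, 2.06, 1.55 and 2.43 on the log2 scale, and the fitted difference was 1.90 ± 0.170 (SE; 95% interval 1.51 to 2.30). The pair with the lowest level thus had the largest ratio, 5.40-fold, and the smallest was 2.94-fold in pair 3. The raw counts behind these values were 216 to 809 in Mettl3-RNP and 40 to 172 in Pulsed. Of the 14942 tested genes, Map1a ranked 25 by fitted log2 fold change.

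Map1s (chr8, 71358576 to 71375175, plus strand) encodes the short, broadly expressed member of the family. It stood at 70.2, 81.9, 66.7 and 68.3 CPM in Mettl3-RNP and at 64.8, 62.2, 61.5 and 60.5 CPM in Pulsed. The groups did not overlap, but the gap between the nearest libraries, Mettl3-RNP replicate 3 and Pulsed replicate 1, was small. The fitted difference was 0.20 ± 0.0747 on the log2 scale (SE; 95% interval 0.03 to 0.37), below the 1.5-fold limit. Map1s was the steadiest of the 10 genes in the control, with a coefficient of variation of 2.93% over the 4 Pulsed libraries. The third family member, Map1b, is not among the 10 genes and was read at 0.315 ± 0.152 CPM in Pulsed and 0.831 ± 0.307 CPM in Mettl3-RNP. Its log2 difference of 1.41 ± 0.441 did not pass (adjusted p = 0.113, edgeR's quasi-likelihood test). It was called in 1 of the alternatives, removeBatchEffect followed by limma. Map1b was picked out here after its values were seen, as the remaining Map1 gene.

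Map4 and Map7 bind along the lattice as well. Map4 is the main lattice-stabilising protein of cells other than neurons, and Map7 recruits and activates kinesin-1. Map4 stood at 111, 98.5, 71.0 and 84.9 CPM in Mettl3-RNP and at 119, 97.7, 80.2 and 83.8 CPM in Pulsed. The level went with the replicate number: replicate 1 was highest and replicate 3 lowest in both groups. The fitted difference was -0.06 ± 0.0684 on the log2 scale (95% interval -0.22 to 0.10). Map7 stood at 77.2, 58.8, 83.4 and 81.1 CPM in Mettl3-RNP and at 66.1, 61.3, 98.7 and 76.5 CPM in Pulsed. The pairs went both ways, 2 higher and 2 lower, and the groups overlapped. Its fitted fold was 1.00, with a 95% interval from 0.870 to 1.15.

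The neuron navigators Nav1 and Nav2 are large proteins that track microtubule plus ends and were named for their part in axon guidance. Nav1 (chr1, 135362318 to 135616086, minus strand) stood at 72.5, 61.9, 47.1 and 73.4 CPM in Mettl3-RNP and at 43.0, 29.0, 25.8 and 41.8 CPM in Pulsed. Every Mettl3-RNP library lay above every Pulsed library, although the lowest of the former and the highest of the latter were close. Replicates 1 and 4 were the high libraries and replicate 3 the low library in both groups. The means were 63.7 ± 12.2 and 34.9 ± 8.76 CPM (SD, n = 4). The log2 differences of the pairs were 0.75, 1.09, 0.87 and 0.81, and the fitted difference was 0.88 ± 0.0790 (SE; 95% interval 0.70 to 1.06). The pairs of Nav1 agreed more closely than those of Map1a, with an SD over pairs of 0.147 against 0.414.

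Nav2 (chr7, 48558464 to 49259838, plus strand) was read at a low level, and its pairs went both ways. It stood at 1.91, 3.57, 3.81 and 2.76 CPM in Mettl3-RNP and at 3.68, 2.22, 5.05 and 2.08 CPM in Pulsed, from 71 to 203 counts a library. The groups overlapped over most of their range. Its fitted difference was -0.07 ± 0.280 on the log2 scale, and the 95% interval, from -0.71 to 0.58, was the widest of the 10 genes. The third navigator, Nav3, which is not among the 10 genes and was picked out after its values were seen, was at 0.374 ± 0.389 CPM in Pulsed and 0.513 ± 0.504 CPM in Mettl3-RNP.

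Clip1 is a linker protein that joins growing plus ends through the end-binding proteins. Its values were 40.3, 40.9, 65.0 and 47.9 CPM in Mettl3-RNP and 44.1, 36.2, 60.4 and 34.1 CPM in Pulsed. Replicate 3 was highest in both groups, and 3 of 4 pairs were higher in Mettl3-RNP. The fitted difference was 0.16 ± 0.101 on the log2 scale (95% interval -0.07 to 0.39). Its paralogue Clip2, not among the 10 genes, stood at 49.8 ± 14.2 CPM in Mettl3-RNP and 38.9 ± 10.2 CPM in Pulsed. Clip2 was higher in 4 of 4 pairs, with a log2 difference of 0.35 ± 0.0673 and an adjusted p of 0.0342 (edgeR's quasi-likelihood test), under the 1.5-fold limit, and was picked out after its values were seen.

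Mapre1 and Mapre2 encode the end-binding proteins EB1 and EB2, around which the proteins of the plus end assemble. Mapre1 stood at 164, 196, 319 and 235 CPM in Mettl3-RNP and at 156, 210, 324 and 220 CPM in Pulsed. Replicate 3 was highest and replicate 1 lowest in both groups, while the libraries of a pair differed by at most 0.10 on the log2 scale. The fitted difference was 0.01 ± 0.0680 (95% interval -0.15 to 0.17). Mapre2 stood at 85.4, 66.6, 87.0 and 75.6 CPM in Mettl3-RNP and at 88.7, 86.9, 93.6 and 91.4 CPM in Pulsed. It was the only one of the 10 genes that was lower in the Mettl3-RNP library of every pair, and its groups overlapped at a single Mettl3-RNP library, replicate 3, that lay above the lowest Pulsed library. The fitted log2 difference was -0.20 ± 0.0778 (95% interval -0.38 to -0.02), with pairs from -0.06 to -0.38.

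Stmn1 encodes stathmin, which holds tubulin dimers and is abundant in dividing cells. It stood at 34.7, 87.7, 135 and 128 CPM in Mettl3-RNP and at 39.6, 90.5, 98.5 and 124 CPM in Pulsed. Replicate 1 was the low library of both groups. Pair 3 was higher in Mettl3-RNP by 0.45 on the log2 scale, while the other pairs lay between -0.19 and 0.05. The fitted difference was 0.07 ± 0.106 (95% interval -0.17 to 0.32).

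**Figure D1:**
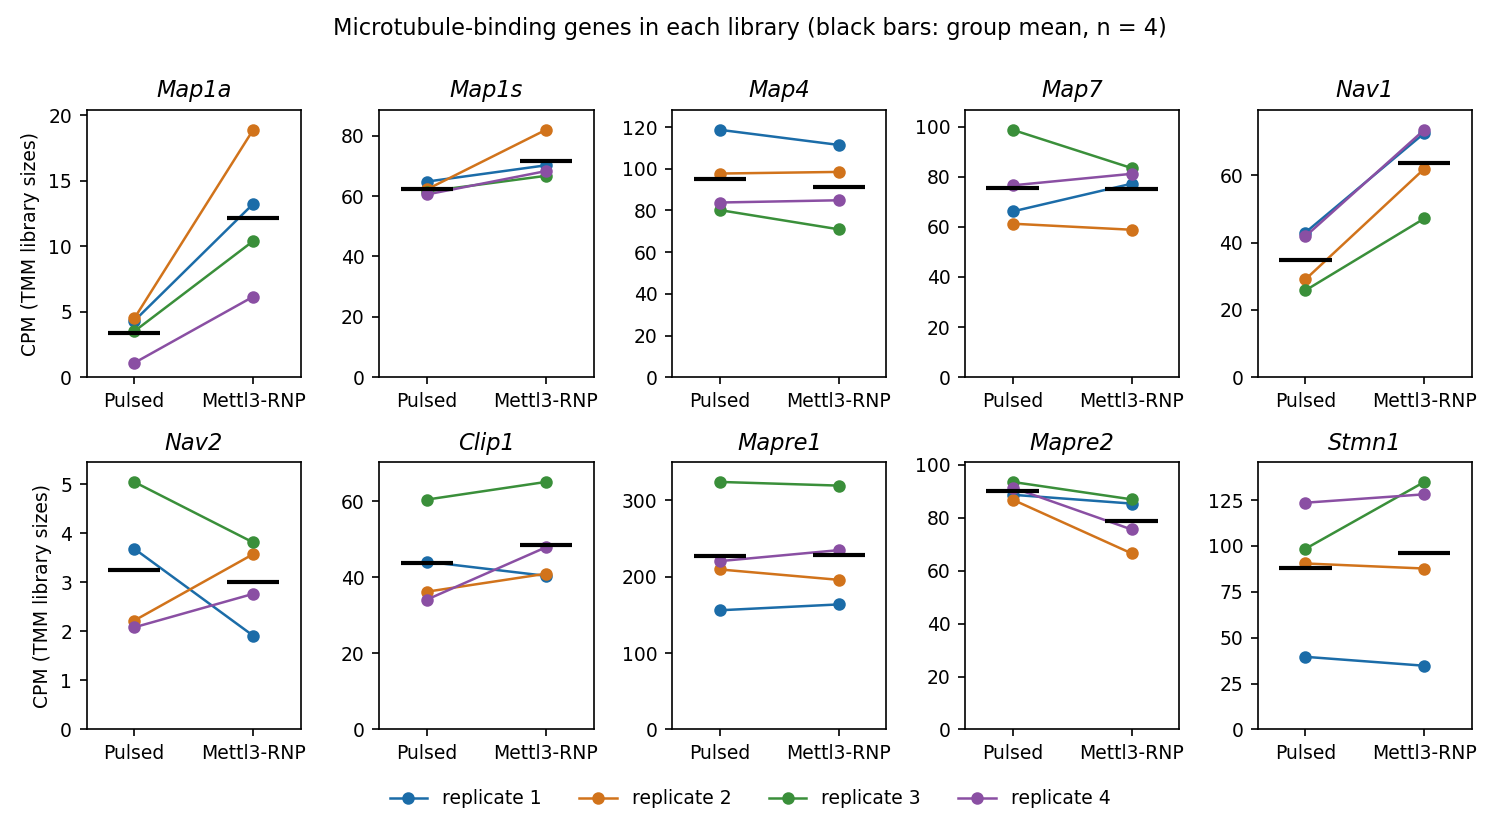
CPM of each of the 10 genes in every library, with Pulsed on the left and Mettl3-RNP on the right of each panel, 1 colour per replicate number, lines joining the pairs and black bars for the mean of 4. All lines of Map1a and Nav1 climb from Pulsed to Mettl3-RNP (means 3.35 to 12.2 and 34.9 to 63.7 CPM), while in Mapre1 and Map4 the order of the replicates is kept from one group to the other.

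Of the 10 genes, 2 passed the call rule, both higher, in a table where 2.06% of all genes passed it and 1.24% did so in that direction. Without the pairing, 0 of the 10 passed in edgeR, with 2 at an unadjusted p under 0.05. The CPM ranges of the groups did not overlap for 3 of the 10 (Map1a, Map1s and Nav1), against 3.23% of all tested genes. Direction was the same in 4 of 4 pairs for 4 of them (these 3 higher, and Mapre2 lower), against 31.7% of all tested genes. The list was made with these differences known, so the shares carry no weight of their own. The median fitted difference of the 10 genes was 0.04 on the log2 scale, beside -0.00 over all 14942 genes.

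**Figure D2:**
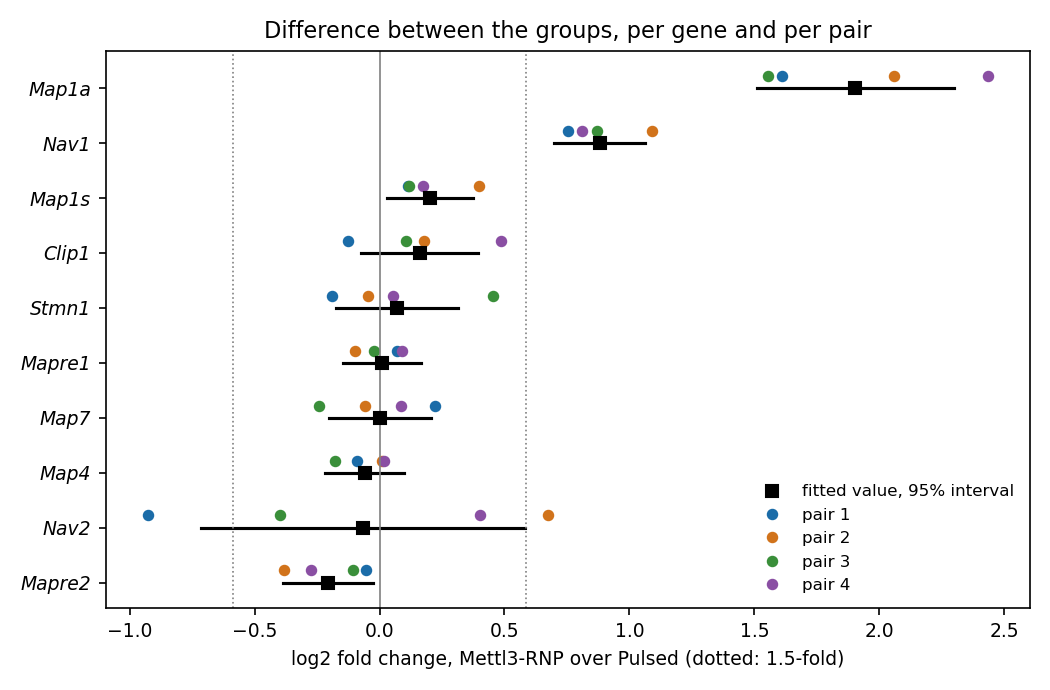
Log2 fold change of Mettl3-RNP over Pulsed for the 10 genes, with black squares and bars for the fitted value and its 95% interval, coloured points for the 4 pairs and dotted lines at 1.5-fold. Only the intervals of Map1a (1.51 to 2.30) and Nav1 (0.70 to 1.06) lie wholly beyond the dotted line, and the interval of Nav2 is the widest (-0.71 to 0.58).

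Between genes, levels were compared as CPM per kb of annotated exons. In the Pulsed libraries Stmn1 had the highest level, 17.5 ± 7.02 CPM per kb (SD, n = 4), followed by Mapre1 at 14.1 ± 4.36, Mapre2 at 8.46 ± 0.277, Map1s at 6.15 ± 0.180, Map4 at 5.66 ± 1.04 and Map7 at 4.84 ± 1.06 CPM per kb. Clip1 followed at 2.42 ± 0.661 and Nav1 at 1.83 ± 0.460 CPM per kb. Map1a at 0.275 ± 0.128 and Nav2 at 0.0958 ± 0.0411 CPM per kb were the lowest. The ranges over 4 libraries overlapped between Stmn1 and Mapre1, Map1s and Map4, Map4 and Map7, Clip1 and Nav1, and Map1a and Nav2. Map1a was above Nav2 in each of the 4 Pulsed libraries on this length. In the other 4 pairs of neighbours the order changed from library to library. The values depend on the length used. With the canonical transcript as the length, Stmn1 stood at 49.2, Mapre1 at 30.9, Mapre2 at 22.4, Map1s at 18.8, Map7 at 17.5, Map4 at 10.4, Clip1 at 5.15, Nav1 at 2.49, Nav2 at 0.420 and Map1a at 0.290 CPM per kb, so that Map7 moved above Map4 and Nav2 above Map1a. In the Mettl3-RNP libraries Map1a reached 0.998 ± 0.438 CPM per kb and Nav1 3.34 ± 0.642 CPM per kb, so that Map1a was still below the Pulsed level of Nav1.

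**Figure D3:**
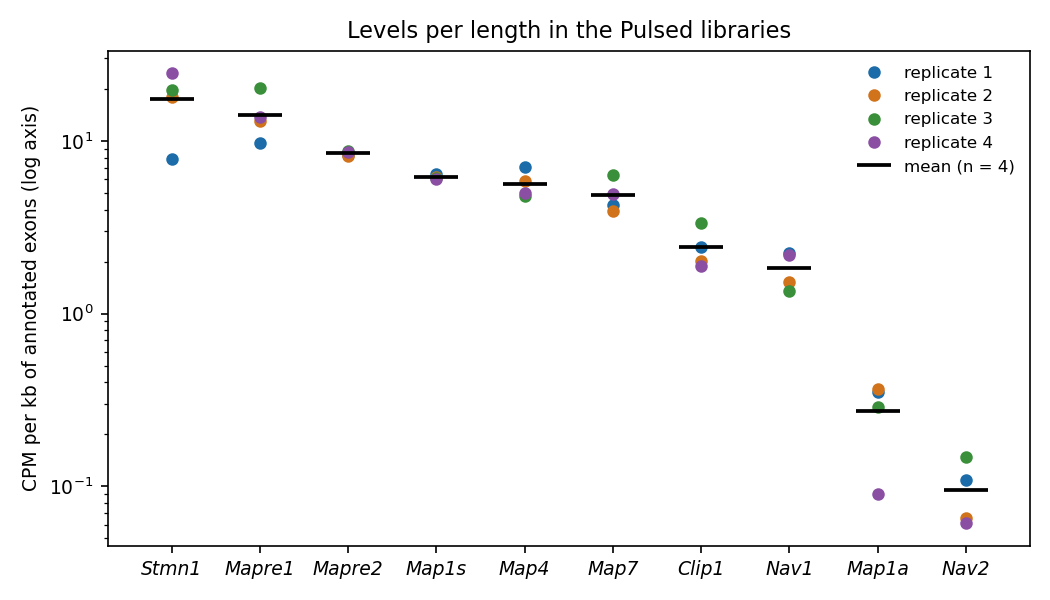
CPM per kb of annotated exons in the 4 Pulsed libraries for the 10 genes, on a log axis, with 1 point per library and a bar for the mean. The levels run from 17.5 for Stmn1 down to 0.0958 for Nav2, and the points of neighbouring genes overlap in 5 places.

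The spread of the 10 genes over the 8 libraries divided into different kinds. For Mapre1, 98.9% of the variance of log2 CPM lay between replicate numbers, for Stmn1 96.9%, for Map4 95.5%, for Map7 86.4% and for Clip1 80.8%. For Nav1, 69.6% lay between the groups, for Map1a 64.7% and for Map1s 57.7%. Mapre2 came next with 44.9% between the groups, and Nav2 had 51.2% between replicate numbers and 0.477% between the groups.

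The markers of dividing cells differed between replicates, as Stmn1 did. The 12 G2 and mitosis markers summed to 496, 1209, 1395 and 1638 CPM in Mettl3-RNP replicates 1 to 4 and to 443, 1045, 798 and 1518 CPM in Pulsed. Both Stmn1 and this sum were lowest in replicate 1 of each group, and both had their largest excess of Mettl3-RNP over Pulsed in pair 3. The order of the other replicates was not the same: in Pulsed, replicate 3 was above replicate 2 for Stmn1 and below it for the sum, and in Mettl3-RNP replicate 3 was above replicate 4 for Stmn1 and below it for the sum. In that pair the median log2 difference of the markers was 0.61, against 0.05, 0.07 and -0.15 in pairs 1, 2 and 4. None of the 12 markers passed the call rule. The genes closest to Stmn1 over the 8 libraries were Plk4 (Pearson r = 0.991 of log2 CPM), a kinase of centriole duplication, and Cdk1 (r = 0.989), the kinase that drives entry into mitosis. These were named after their values were seen. Of the 10 genes, Mapre1 ran most like Stmn1 (r = 0.780): it too was lowest in replicate 1 of both groups, and it was highest in replicate 3 of both, where Stmn1 was highest in Mettl3-RNP alone. In replicate 3 the 12 immediate early genes summed to 25368 CPM in Mettl3-RNP and 21869 CPM in Pulsed, against 600 to 6580 CPM in the other 6 libraries. All 11 that were tested were fitted higher in Mettl3-RNP, with a median log2 difference of 0.37, and none passed the call rule. Their pair medians were -0.32, 0.71, 0.31 and 0.42 in pairs 1 to 4. The part of these sums in the values of the 10 genes was not tested.

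**Figure D4:**
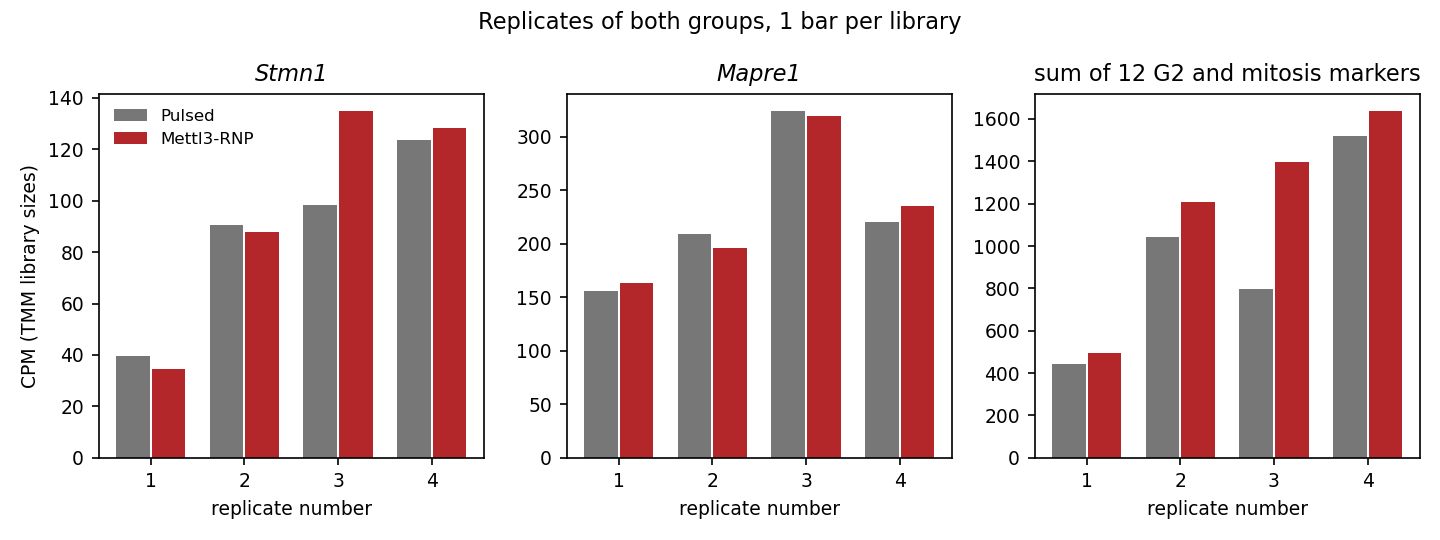
CPM of Stmn1 and of Mapre1 and the summed CPM of 12 G2 and mitosis markers, by replicate number, with 1 grey bar per Pulsed and 1 red bar per Mettl3-RNP library. Stmn1, Mapre1 and the marker sum are all lowest in replicate 1 of both groups (39.6 and 34.7 CPM for Stmn1), and Mapre1 is highest in replicate 3 of both (324 and 319 CPM).

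Likeness was measured over 10737 protein-coding genes averaging 1 CPM or more. The genes whose log2 CPM ran most like that of Map1a over the 8 libraries were Lrrc75b (Pearson r = 0.972), Ski (0.962), Dip2b (0.961), Borcs6 (0.941) and Dok3 (0.940). Those most like Nav1 were Btbd6 (0.970), Zswim1 (0.968), Rpp25l (0.967), 2310022A10Rik (0.966) and Tubb3 (0.965), the last a beta tubulin best known from neurons. The 5 genes of Map1a and the 5 of Nav1 had none in common. Within the 10 genes, Map1a correlated most with Map1s (r = 0.843) and less with Nav1 (r = 0.555). The replicate pattern set these apart, since replicate 4 was lowest for Map1a and among the highest for Nav1. The strongest inverse relation among the 10 was between Map4 and Mapre1 (r = -0.941). These values describe 8 libraries that share groups and pairs, and no test was made of them.

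The other genes of the microtubule system were taken from lists by role, 208 genes in all, of which 165 were tested. Of these, 3 passed the call rule, all higher in Mettl3-RNP: Tubb3, Kif7 and Svbp. These are 1.82% of the 165, beside 2.06% of all tested genes. Leaving out replicate 2 left 0 of them called by edgeR, with 26 genes of the lists at an unadjusted p under 0.05. The median difference of the 165 was 0.04 on the log2 scale, with 95 fitted higher and 70 lower.

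Tubb3 stood at 5.06, 5.30, 2.91 and 5.76 CPM in Mettl3-RNP and at 3.29, 1.67, 1.64 and 2.19 CPM in Pulsed. It was higher in 4 of 4 pairs, by 1.12 ± 0.213 on the log2 scale (adjusted p = 0.0340, edgeR's quasi-likelihood test), although Mettl3-RNP replicate 3 lay below Pulsed replicate 1. Kif7, a kinesin of the cilium tip in Hedgehog signalling, stood at 12.8, 26.3, 36.4 and 19.8 CPM in Mettl3-RNP and at 7.14, 6.71, 25.3 and 7.45 CPM in Pulsed. Replicate 3 was the highest of both groups, and the difference of 1.17 ± 0.219 (adjusted p = 0.0329, same test) was seen in all 4 pairs. Exons of Kif7 overlap Ticrr on the opposite strand. Svbp, the partner of the vasohibins that remove the terminal tyrosine of alpha tubulin, stood at 8.80, 15.5, 19.5 and 11.6 CPM in Mettl3-RNP and at 7.31, 9.56, 11.7 and 7.53 CPM in Pulsed. Its difference was 0.59 ± 0.115 (adjusted p = 0.0361, same test), at the edge of the fold limit, and it was not called when any replicate number was left out or with removeBatchEffect and limma.

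With no limit on the fold, 9 of the 165 genes passed the adjusted p of 0.05, all higher in Mettl3-RNP, where 2.35% of all genes passed in that direction. Besides the 3 genes above and Clip2 these were Tuba8, an alpha tubulin, by 0.45 ± 0.0934 on the log2 scale, Kif21b, a kinesin that slows plus-end growth, by 0.44 ± 0.0760, Tubgcp6, a subunit of the gamma-tubulin ring complex, by 0.47 ± 0.102, Nin, the centrosomal protein ninein, by 0.39 ± 0.0830, and Gas2l1, which links microtubules to actin, by 0.34 ± 0.0742. Their adjusted p-values in edgeR's quasi-likelihood test lay between 0.0278 and 0.0490. They were singled out after their values were seen, since they fall short of the fold limit.

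List by list, 10 of 15 tubulins were fitted higher, with a median log2 difference of 0.21 and pair medians of -0.03, 0.35, 0.44 and -0.08 in pairs 1 to 4. Of the other lattice-binding proteins, 14 of 17 were fitted higher with a median of 0.39, and none passed the call rule. Their pair medians were -0.06, 0.76, -0.21 and 0.37, so pairs 1 and 3 went the other way. Many of these were barely read, as Mapt at 0.334 ± 0.291 CPM and Dcx at 0.308 ± 0.118 CPM in Pulsed, while the 3 most abundant per length, Map7d1, Gas2l3 and Macf1, differed by -0.01, 0.15 and 0.01 on the log2 scale. Mapt, Dcx and Macf1 were picked out after their values were seen. The plus-end tracking proteins had a median of 0.04 over 21 genes, and the depolymerising and severing proteins 0.14 over 10. The nucleation and minus-end proteins had a median of -0.05 over 22 genes, and dynein and dynactin -0.05 over 23. The transport kinesins stood at 0.05 over 22 genes, and tubulin folding and modification at 0.03 over 25. All 10 mitotic kinesins were fitted higher, with a median of 0.19 and no gene past the rule, but their median in pair 4 was -0.19 and in pair 3 0.61, the same order of pairs as for the G2 and mitosis markers. No gene of these 9 lists was called lower in this fit. Under alternatives 1 was called lower with DESeq2, with every gene holding at least 1 count and without replicate 4, and 2 with removeBatchEffect followed by limma.

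**Figure D5:**
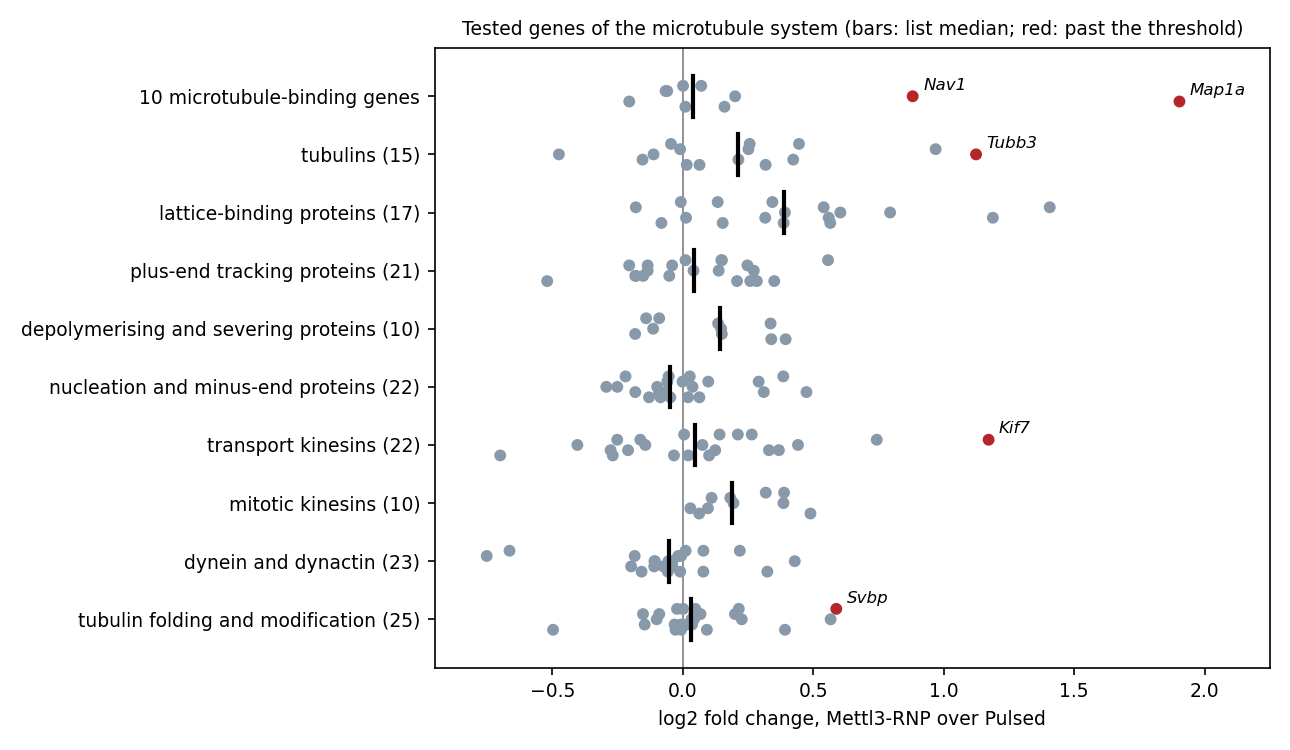
Fitted log2 fold change of Mettl3-RNP over Pulsed for the 10 genes and for the tested genes of 9 microtubule lists, with 1 point per gene, a black bar for the list median and red for genes past the threshold. Map1a at 1.90 lies farthest right of all genes plotted, and the only red points outside the top line are Tubb3, Kif7 and Svbp.

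The most abundant genes of each list gave the level of the system as a whole. Tubb5, the most abundant tubulin, stood at 220.9 ± 54.8 CPM per kb in Pulsed and 228.8 ± 78.3 in Mettl3-RNP, and Tubb4b at 80.5 ± 17.5 and 102.8 ± 48.8. The dynein light chains Dynlrb1 and Dynll2 stood at 62.3 ± 12.0 and 29.6 ± 1.26 CPM per kb in Pulsed, the kinesin-1 genes Kif5b and Klc1 at 22.7 ± 5.45 and 10.9 ± 1.04, and the tubulin chaperones Tbca and Tbcb at 20.4 ± 4.79 and 17.2 ± 2.21. Map7d1 at 21.9 ± 8.14, Gas2l3 at 12.6 ± 4.15, Tacc1 at 21.5 ± 7.88, Pafah1b1 at 18.4 ± 3.20 and Tpx2 at 22.3 ± 11.8 CPM per kb were in the range of Stmn1 and Mapre1. Kif2a at 9.13 ± 0.708, Nin at 9.37 ± 3.52, Kif23 at 8.55 ± 3.01, Kif11 at 7.67 ± 3.54 and Spast at 5.31 ± 0.368 were near that of Mapre2 to Map4. Apart from Nin, no gene of these 18 passed the adjusted p of 0.05, and their log2 differences lay between -0.25 for Klc1 and 0.39 for Nin.

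Some of the 10 genes share exonic ground with other genes, and the counting does not state whether strand was used. Exons of Map1a overlap Ppip5k1 on the opposite strand, which stood at 29.0 ± 5.82 CPM in Pulsed and 29.5 ± 7.50 CPM in Mettl3-RNP, a log2 difference of 0.02. Exons of Nav1 overlap the antisense Gm57161, at 1.43 ± 0.897 and 2.01 ± 0.542 CPM, and Gm4793, at 0.0615 and 0.153 CPM. Nav2 shares ground with Gm2788 on its own strand, at 1.55 ± 0.520 CPM in Pulsed and 2.06 ± 0.621 CPM in Mettl3-RNP, beside means of 3.26 and 3.02 CPM for Nav2 itself. The overlapping transcripts of Map7, Stmn1 and Mapre2 that were counted stood below 1 CPM in both groups. Because the RNA came from bulk cells, more transcript per cell and more cells with the transcript could not be told apart for any gene.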

How the data were processed

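Poly-A RNA of 8 BMMC libraries was sequenced, 4 labelled Mettl3-RNP and 4 Pulsed. The authors mapped paired reads of 50 bases to GRCm39 (Ensembl release 107) with HISAT2 2.2.1 and counted them with featureCounts 2.0.1, per the study's methods and the submitters' processing notes, which also name FastQC 0.11.9. Each deposited table holds raw whole-number counts, 1 row per Ensembl gene. A batch correction that the methods mention left no trace in these counts, which remain whole numbers. GENCODE mouse release M39 named 56017 of the 56748 identifiers, and identifiers without a name held at most 0.113% of a library's counts.

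Genes were kept by filterByExpr (about 10 counts in 4 libraries), which left 14942. Counts were scaled by TMM, given as CPM (per 1000000 counts) and, on the log2 scale, with a prior count of 2. The quasi-likelihood test of edgeR 4.0.16 (R 4.3.3) was run on group, with the replicate as a block and Benjamini-Hochberg adjustment. A gene was called at an adjusted p up to 0.05 with a difference of 1.5-fold or more. Standard errors and 95% intervals come from the same fit. Its variance estimate is moderated over all genes, so these errors are not the plain spread of the pairs. The test was tried on simulated data with known changes.

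The series text names 4 mice for 8 samples with shared numbers, from which it was inferred that equal numbers mean the same mouse. Deviations from the group means of same-numbered libraries correlated at 0.825, 0.489, 0.879 and 0.765 over 11985 genes, and the highest correlation of differently numbered libraries was 0.183.

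The 10 genes and all gene lists were chosen with earlier results of these data known. Genes named were the 10, Mettl3, other microtubule genes past the call rule, the 2 most abundant per length of each list, and the 5 genes most correlated with Map1a and Nav1. Defining cell markers and genes that share exons with a named gene were named as well. Others are marked as chosen after their values were seen. Alternatives were DESeq2 1.42.0, removeBatchEffect with limma 3.58.1, other scalings and filters, no block, and leaving out each replicate number.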

Additional observations from a re-analysis of the deposited data

Results flagged for a closer look

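Among 20 genes named in the comparisons, the values of each group of 4 libraries were examined for a library set apart from the other 3 by Dixon's criterion, and 3 of the 40 groups held such a library, where chance gives about 2. All 3 were libraries of replicate 3. Mettl3 in Pulsed replicate 3 stood at 11.2 CPM, with the other Pulsed libraries between 24.5 and 26.5 CPM. Nin, the centrosomal protein ninein, stood at 296 CPM in Mettl3-RNP replicate 3, with the others between 169 and 187 CPM. Kif7 stood at 25.3 CPM in Pulsed replicate 3, with the others between 6.71 and 7.45 CPM. None of the 10 microtubule-binding genes had a library set apart in either group.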

How the results depend on the processing

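Map1a and Nav1 kept their direction in all alternatives, with log2 differences from 1.77 to 2.02 and from 0.81 to 0.92, and kept their call in all but the fit without the replicate block, where the differences were 1.86 and 0.87. In the fit without the replicate block 0 genes passed in edgeR's quasi-likelihood test, 0 of the microtubule lists and 0 of the 10 genes, with 579 genes, 5 of the lists and 2 of the 10 at an unadjusted p under 0.05. Mettl3 then differed by -1.31 on the log2 scale with an adjusted p of 0.744, against 1.13e-15 to 0.0380 in its other alternatives. In the main design 308 genes, 3 microtubule genes and 2 of the 10 passed. The counts for all genes and for the microtubule lists were 579 and 5 with every gene holding at least 1 count, 505 and 5 with DESeq2, 973 and 7 with removeBatchEffect followed by limma, and 559 and 9 with no limit on the fold change. Leaving out each replicate number in turn gave 26 to 331 genes and 0 to 3 microtubule genes, the lowest without replicate 2, while 2 of the 10 genes passed each time. Svbp was not called without replicate 1, 2, 3 or 4 or with removeBatchEffect and limma, and Kif7 and Tubb3 were not called without replicate 2. The cause was not tested. Without replicate 3, Map1a differed by 2.02 and Nav1 by 0.88. The differences of Map7, Mapre1, Nav2 and Stmn1, all near 0, changed sign in 3, 2, 2 and 1 of 11 alternatives. The lengths of canonical transcripts, an alternative chosen after seeing the data, raised the level per kb of all 10 genes, that of Nav2 from 0.0958 to 0.420, and reordered Map4 and Map7, and Map1a and Nav2. The lowest counts among the 10 genes were those of Nav2, with 71 to 203 counts a library, and of Map1a in Pulsed, with 40 to 172. The part of depth in the spread of Nav2 was not tested.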
